A study of Mus musculus with 12 samples.

Results

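The oligodendrocyte lineage markers are 9 genes, Pdgfra, Cspg4, Olig1, Olig2, Sox10, Mbp, Cnp, Mag and Mog, chosen by symbol from the 23893 rows of the count table of cortical neuron cultures in which TOP1 was inhibited, deleted or both. Every symbol was found. Of these, 8 had more than 3 counts in at least 1 library, 7 had a mean of at least 1 count per 1000000 (CPM) over the 12 libraries, and Mag had no count in any library.

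Oligodendrocytes wrap axons in myelin. Their progenitors divide in response to platelet-derived growth factor through its receptor PDGFRA and carry the proteoglycan NG2, the product of Cspg4. The basic helix-loop-helix factors OLIG1 and OLIG2 and the HMG-box factor SOX10 commit cells to the lineage and act in both progenitors and mature cells. When progenitors leave the cell cycle, genes for the sheath are switched on, among them those for myelin basic protein (Mbp), the phosphodiesterase CNP, myelin-associated glycoprotein (Mag) and myelin oligodendrocyte glycoprotein (Mog). Not all of these genes are limited to the lineage: fibroblasts also express Pdgfra, pericytes express Cspg4, and the Mbp locus yields golli transcripts that neurons and other cells make, which a count per gene symbol does not separate.

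RNA-seq libraries of polyadenylated RNA were made from 12 mouse cortical neuron cultures (C57BL6 in the labels) prepared from mid-gestation embryos of up to day 15.5, 3 in each of 4 groups. The labels give the genotypes as wild-type (WT) and Top1cKO; by the study's methods both came from Top1 fl/fl cultures, which received at 3 days in vitro (DIV) a lentivirus for tdTomato alone (WT) or for tdTomato-P2A-CRE (Top1 cKO). At DIV 15 cells received vehicle (Veh, 0.003% DMSO) or 300 nM topotecan (Topot), which traps TOP1 on DNA, for 3 days. The 4 groups are called WT-Veh and WT-Topot for tdTomato and Top1 cKO-Veh and Top1 cKO-Topot for CRE, and the study counts its replicates as cultures. The viruses, with a transduction efficiency of 85 to 90% in the labels, use the CaMKIIα promoter, which is active in neurons, whereas topotecan was added to whole cultures. CRE activity and drug exposure of single cell types were not measured here. In RNA from whole cultures, fewer cells of a type and less RNA per cell cannot be told apart.

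Libraries held 1730164 to 4583777 counts, at which 3 counts, used here as the detection floor, correspond to 0.687 to 1.73 CPM. The targeted gene Top1 was at 117 to 163 CPM in the 6 tdTomato libraries and at 27.1 to 44.0 CPM in the 6 with CRE, and no library went against its label. After TMM scaling, each pair of groups was compared by edgeR's quasi-likelihood test with p-values adjusted (Benjamini-Hochberg) across 23893 genes, at a false discovery rate (FDR) of 0.01. A gene is said to have risen or fallen only where its adjusted p is under 0.01. Libraries sharing a replicate number moved in the same direction about the means of their groups, and a fit that takes replicate numbers as blocks stands beside each member call that it alters, and its counts are given for the lineage lists. The block fits on 6 libraries leave 2 degrees of freedom per gene and borrow the rest from other genes, to totals of 38.2 to 47790 against 15.7 to 24.5 without the block, and a block fit on all 12 libraries, with 45.4, is given beside them where its call differs. The 6 comparisons share groups, so their values are not independent of each other.

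The members lie on 8 chromosomes of the mouse genome (mm9, which is NCBIM37, with GENCODE vM1 genes). Olig2 (chr16:91225795-91228922, + strand) and Olig1 (chr16:91270014-91272184, + strand) are neighbours with 41.1 kb between them. Mbp spans 110 kb, and the other 8 members span from 2.17 kb for Olig1 to 45.9 kb for Pdgfra (chr5:75548316-75594229, + strand). Cnp (chr11:100436218-100453043, + strand) shares 154 exon bases with Dnajc7 on the opposite strand. For Olig2 and Cnp, members whose values in the CRE and topotecan groups are followed below, the sequence from 250 bases before to 50 bases after the RefSeq start (GRCm38.p6) is shown. Capitals mark the TATA box TATAAA, the GC box GGGCGG and the CCAAT box on either strand, which 13.6%, 35.7% and 37.4% of 32851 RefSeq promoters of this length hold.
Olig2 (chr16:91225300-91225599, + strand): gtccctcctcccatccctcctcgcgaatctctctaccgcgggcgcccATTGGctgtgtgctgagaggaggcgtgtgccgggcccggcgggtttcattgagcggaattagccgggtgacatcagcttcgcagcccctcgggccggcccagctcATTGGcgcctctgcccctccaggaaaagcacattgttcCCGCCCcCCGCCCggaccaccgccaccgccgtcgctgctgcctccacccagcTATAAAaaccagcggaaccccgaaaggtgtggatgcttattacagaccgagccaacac
Cnp (chr11:100574689-100574988, + strand): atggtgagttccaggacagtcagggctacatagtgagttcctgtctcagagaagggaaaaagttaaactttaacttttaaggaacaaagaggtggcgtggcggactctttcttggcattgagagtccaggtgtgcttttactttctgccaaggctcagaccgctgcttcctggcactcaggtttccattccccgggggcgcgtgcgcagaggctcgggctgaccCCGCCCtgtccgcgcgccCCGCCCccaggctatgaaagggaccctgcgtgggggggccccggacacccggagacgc
The Olig2 window held 1 TATA box, 2 GC boxes and 2 CCAAT boxes, with 65.0% G and C and 25 CpG dinucleotides. The Cnp window held 2 GC boxes, no TATA box and no CCAAT box, with 59.7% G and C and 17 CpG dinucleotides, against medians of 52.7% and 7 over all promoters. Of the 9 members, 6 had an entry in the promoter table. These matches describe the letters of the windows and are not evidence of binding.

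Per length of exon and over all groups, Olig1 was the highest member, at 28.4 ± 19.1 CPM per kb (SD, n = 12 libraries of all groups). Cnp (10.4 ± 4.51 CPM per kb) and Mbp (8.58 ± 2.47 CPM per kb) followed, then Olig2 (3.87 ± 2.47 CPM per kb). Mog (0.891 ± 0.745), Pdgfra (0.797 ± 0.487), Cspg4 (0.479 ± 0.262) and Sox10 (0.274 ± 0.265) were near or under 1 CPM per kb. Olig1 was above Cnp in 10 of 12 libraries, all but WT-Veh replicates 1 and 3, and Mbp was above Olig2 in 12 of 12. Cnp and Mbp could not be ordered, since each was the higher of the pair in 6 libraries, and Mog was above Pdgfra in 7 of 12. The divisor for Mbp is the union of 16 annotated transcripts, 8.40 kb, so that its level per kb depends on which of them the cultures made.

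**Figure D1:**
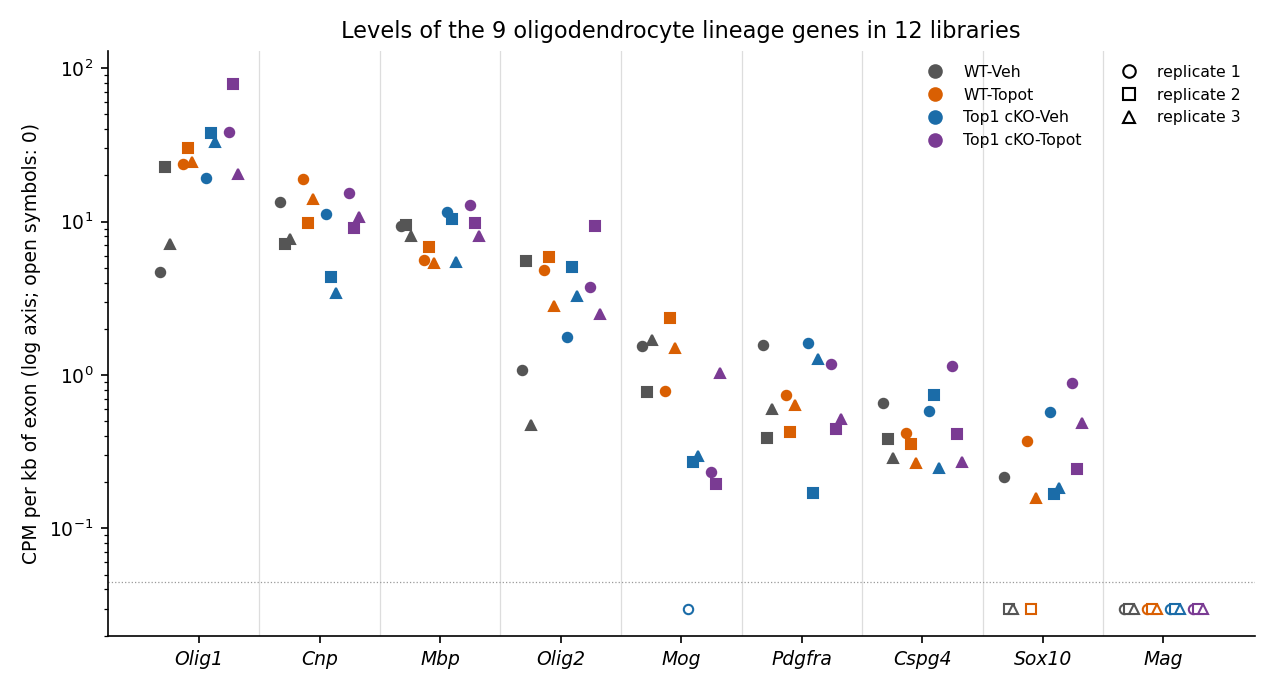
Level of each of the 9 members in CPM per kb of exon (log axis) in the 12 libraries, coloured by group with symbols for replicate numbers 1 to 3, and open symbols at the bottom for libraries with 0 counts. Olig1, Cnp, Mbp and Olig2 had counts in all 12 libraries, Sox10 was at 0 in 3 libraries and Mag in all 12.

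The name of the set was checked against 4 lists of lineage genes, transcription factors, progenitor genes, premyelinating genes and myelin genes, which hold 65 genes with the members. Of the 65 genes, 41 had a mean of at least 1 CPM and 14 had at most 3 counts in every library. Markers that define maturing and mature oligodendrocytes were at or near 0: Opalin and Neu4 had no count, Gpr17 had 1 count, Mobp 2, Enpp6 2 and Bcas1 4 counts over all 12 libraries. Nkx2-2, a lineage transcription factor, had 12 counts and Myrf, the factor that switches on myelin genes, had 27 counts. The cultures are labelled as cortical neurons, and the summed markers of neurons were at 9141 to 11830 CPM. The 9 genes are therefore described one by one and are not read as a measure of oligodendrocytes.

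None of the 9 members passed the threshold in any of the 6 comparisons or in the interaction of topotecan with the deletion, in edgeR's quasi-likelihood test without a block or in DESeq2. Of all genes, 2.72% were called between WT-Topot and WT-Veh, 0.172% between Top1 cKO-Veh and WT-Veh, 1.68% between Top1 cKO-Topot and WT-Veh, 0.00837% between Top1 cKO-Topot and Top1 cKO-Veh, 2.49% between Top1 cKO-Topot and WT-Topot, 1.53% between WT-Topot and Top1 cKO-Veh and 0.435% in the interaction. At an unadjusted p under 0.05 edgeR gave 3, 2, 1, 1, 3, 3 and 1 members in the same order, and DESeq2 gave 2, 2, 1, 1, 2, 3 and 1. DESeq2 gave no adjusted p for 2 to 6 members per comparison. With the replicate block the counts were 2, 1, 2, 2, 2, 2 and 0 of 9, where 8.25%, 5.56%, 7.37%, 2.59%, 8.69%, 7.73% and 3.97% of all genes were called. With the block on all 12 libraries they were 2, 1, 1, 1, 1 and 2 in the 6 comparisons, against 8.14%, 4.7%, 8.9%, 1.16%, 8.26% and 7.05% of all genes. The members called in any of these fits were Olig1, Olig2, Mbp and Cnp. The shares of all genes given here are over 23893 rows, of which 5182 had no count in any library. An average of at least 1 CPM was reached by 13720 of the rows and by 7 of the 9 members. The shares are thus lower than they would be over detected genes, and the members are not read as called more often.

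**Figure D2:**
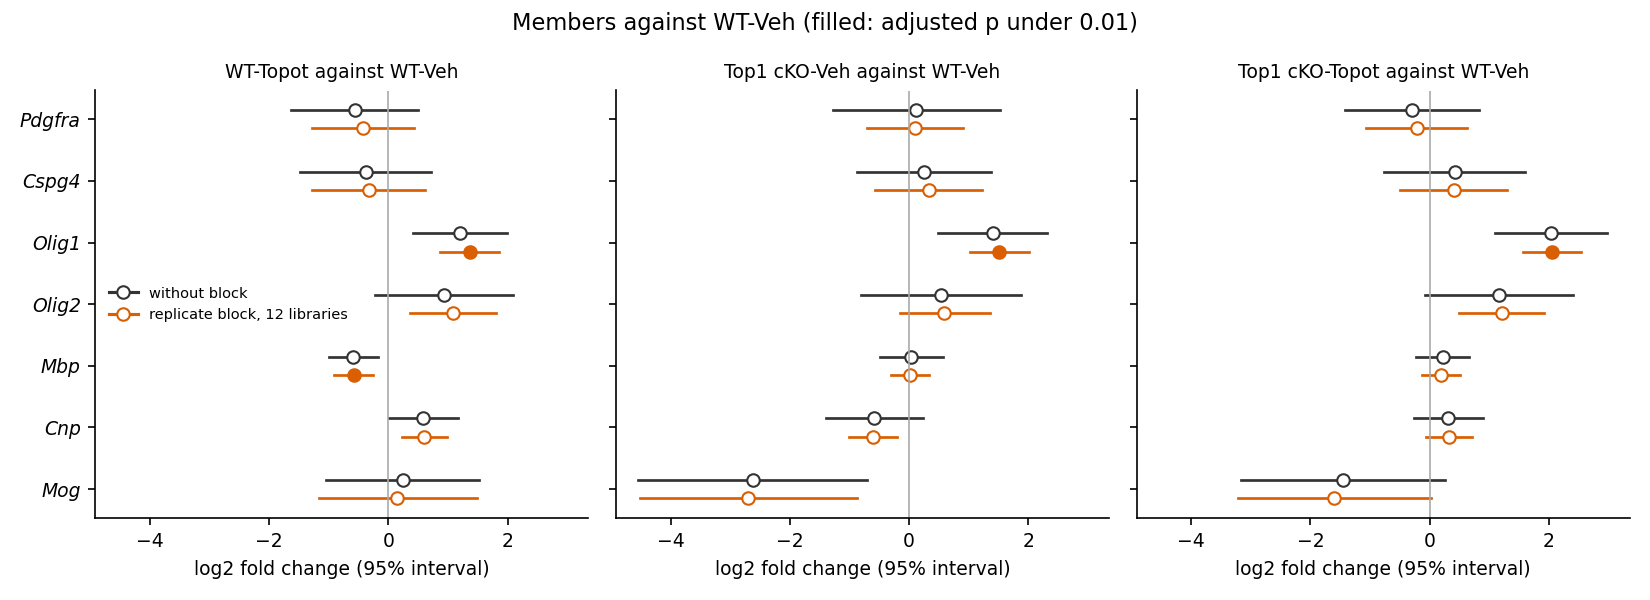
Log2 fold change against WT-Veh in each of the other groups for the 7 members averaging at least 1 CPM, with 95% intervals, without a block and with the replicate block on 12 libraries. Filled symbols have an adjusted p under 0.01: Olig1 in all 3 panels and Mbp in WT-Topot, both only with the block.

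Neither progenitor surface gene passed the test in any comparison. Pdgfra, the receptor for platelet-derived growth factor, was at 10.53, 2.63 and 4.03 CPM in WT-Veh replicates 1, 2 and 3, at 5.03, 2.86 and 4.28 CPM in WT-Topot, at 10.9, 1.14 and 8.52 CPM in Top1 cKO-Veh and at 7.97, 2.99 and 3.497 CPM in Top1 cKO-Topot. Replicate 1 was the highest of each group, replicate 2 the lowest, and all groups overlapped. The replicate number took 70.5% of the variance of log2(CPM + 1) of Pdgfra and the group 3.02%. The log2 difference from WT-Veh was −0.56 ± 0.51 (SE) in WT-Topot. In the CRE groups it was 0.12 ± 0.661 (Veh) and −0.30 ± 0.539 (Topot), and the 95% intervals in this order were −1.63 to 0.50, −1.28 to 1.53 and −1.42 to 0.82. Without WT-Veh replicate 1, the first of these was 0.29. Summed markers of fibroblasts, which also express Pdgfra, moved with it: they were at 307 CPM in WT-Veh replicate 1 against 35.1 and 58.2 CPM in replicates 2 and 3, and replicate 1 was the highest and replicate 2 the lowest of every group, over a range of 24.9 to 307 CPM in all. All 7 of these markers were detected, and their part in the Pdgfra values was not tested.

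Cspg4, the NG2 core protein, was at 5.27, 3.07 and 2.30 CPM in WT-Veh, at 3.35, 2.86 and 2.14 CPM in WT-Topot, at 4.69, 5.95 and 2.004 CPM in Top1 cKO-Veh and at 9.16, 3.32 and 2.19 CPM in Top1 cKO-Topot. Replicate 3 was the lowest of every group, and the groups overlapped. The log2 difference from WT-Veh was −0.38 ± 0.526 in WT-Topot. In the CRE groups it was 0.25 ± 0.531 (Veh) and 0.42 ± 0.568 (Topot). With 134 counts of Cspg4 and 171 of Pdgfra in all libraries together, the intervals of these differences reached 0.50 to 1.60 on the log2 scale on the higher side, so differences within these intervals were not detectable with these libraries. Summed markers of mural cells, which express Cspg4, were at 22.7 to 70.9 CPM, 3 of their 11 genes with at most 3 counts in every library, and their part was not tested.

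Olig1 had the widest range of the members in CPM, and WT-Veh was its lowest group. It was at 10.2, 49.1 and 15.6 CPM in WT-Veh replicates 1, 2 and 3, at 51.9, 65.3 and 53.5 CPM in WT-Topot, at 41.8, 82.0 and 72.1 CPM in Top1 cKO-Veh and at 83.2, 172 and 44.2 CPM in Top1 cKO-Topot. Group means were 24.96 ± 21.1, 56.9 ± 7.27, 65.3 ± 20.9 and 99.7 ± 65.3 CPM (SD, n = 3). Every WT-Topot library lay above every WT-Veh library, whereas WT-Veh replicate 2 reached into the range of both Top1 cKO groups. Replicate 2 was the highest library of each group.

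Against WT-Veh, Olig1 was higher in 3 of 3 replicate numbers in each of the other groups, by log2(CPM + 1) differences of 2.24, 0.40 and 1.72 in WT-Topot. They were 1.93, 0.73 and 2.14 in Top1 cKO-Veh, with 2.91, 1.79 and 1.45 in Top1 cKO-Topot. Of all genes averaging at least 1 CPM, 27.0%, 23.6% and 25.5% were higher in 3 of 3 numbers in these comparisons. The log2 fold change was 1.20 ± 0.377 (SE, adjusted p = 0.0838), 1.40 ± 0.429 (adjusted p = 0.204) and 2.03 ± 0.453 (adjusted p = 0.0118) by edgeR's quasi-likelihood test, and none passed the threshold. With the replicate block Olig1 rose in all 3 groups, by 1.38 ± 0.214 (adjusted p = 9.62e-08), 1.51 ± 0.189 (3.39e-13) and 2.13 ± 0.208 (3.32e-10). On all 12 libraries with the block, these were 1.36 (adjusted p = 4.89e-05), 1.51 (1.84e-05) and 2.06 (5.69e-09). WT-Veh replicate 2 weighed on the size of the difference: without it and without a block, Olig1 rose by 2.19 in WT-Topot (adjusted p = 1.78e-05), by 3.02 in Top1 cKO-Topot (adjusted p = 3.97e-04) and was 2.38 higher in Top1 cKO-Veh (adjusted p = 0.0123). In Top1 cKO-Topot it also rose when 1 of WT-Veh replicates 1 or 3 or of Top1 cKO-Topot replicates 1 or 3 was left out, by 1.62, 1.82, 2.14 and 2.39, but not without Top1 cKO-Topot replicate 2 (1.36, adjusted p = 0.198). The block fit on all groups without replicate 1 gave 0.95 for WT-Topot (adjusted p = 0.0186), so that this call rests on replicate 1 as well.

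Among the other 3 groups the order of Olig1 was less stable. The difference of Top1 cKO-Topot from Top1 cKO-Veh was 0.62 ± 0.358 (adjusted p = 1.0, edgeR's quasi-likelihood test), and replicate 3 went the other way, at −0.70 against 0.98 and 1.06. The 6-library block fit gave 0.56 (adjusted p = 0.00474) and the 12-library block fit 0.54 (adjusted p = 0.27), so this call is lost once all libraries set the spread, and without Top1 cKO-Topot replicate 2 and without a block the difference was −0.02. The block fit on all groups gave 1.04 without replicate 3, where Olig1 rose (adjusted p = 0.00399), and 0.34 and 0.22 without replicate 1 or 2 (adjusted p = 1.0 for both). Top1 cKO-Topot was 0.81 ± 0.295 above WT-Topot (adjusted p = 0.136), with 0.69 (adjusted p = 0.00327) and 0.70 (adjusted p = 0.0233) in the block fits on 6 and 12 libraries. Without a block, Top1 cKO-Topot replicates 2 and 3 set its size: it was 0.16 without replicate 2 (adjusted p = 1.0) and 1.17 without replicate 3 (adjusted p = 9.87e-06). WT-Topot and Top1 cKO-Veh differed by −0.20 ± 0.234, with a 95% interval of −0.69 to 0.29.

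**Figure D3:**
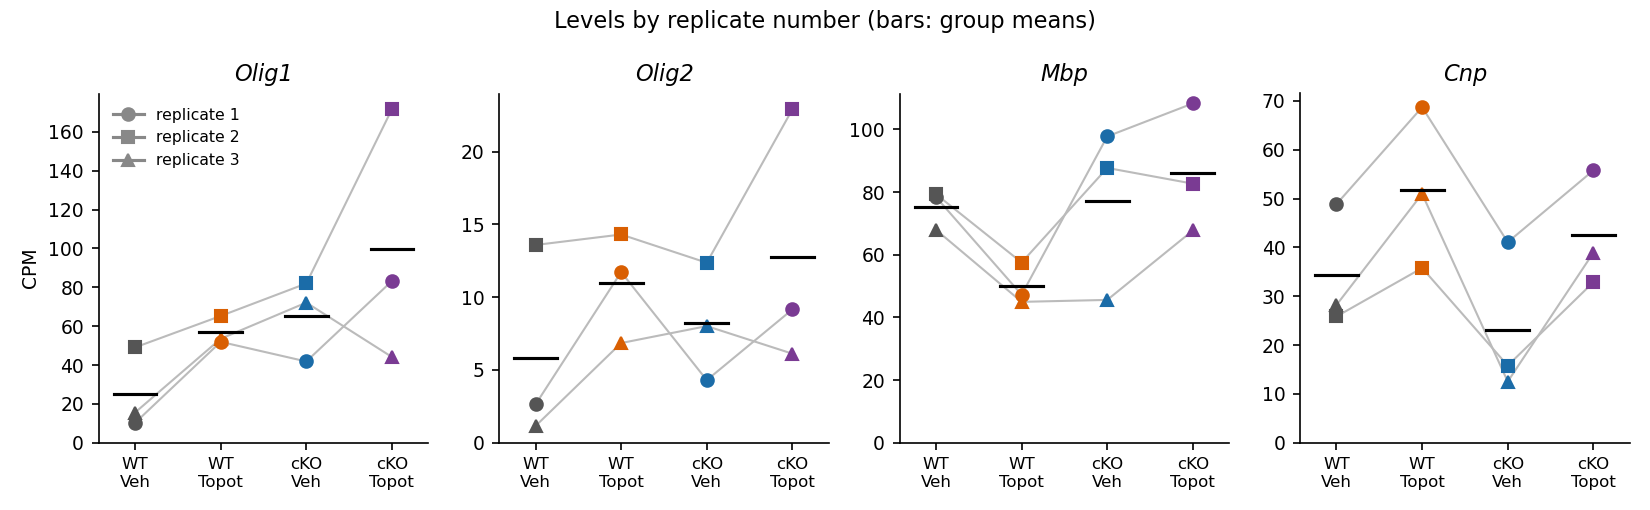
CPM of Olig1, Olig2, Mbp and Cnp in the 4 groups (linear axes from 0), with lines joining libraries of the same replicate number and bars at the group means. Replicate 2 is the highest line for Olig1 and Olig2 in every group, replicate 1 for Cnp, and Mbp is lowest on average in WT-Topot.

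Olig2, the partner factor of Olig1, had a mean of 9.43 ± 6.01 CPM over the 12 libraries, against 61.7 ± 41.5 CPM for Olig1. It was at 2.63, 13.6 and 1.15 CPM in WT-Veh, at 11.7, 14.3 and 6.85 CPM in WT-Topot, at 4.30, 12.4 and 8.02 CPM in Top1 cKO-Veh and at 9.16, 22.9 and 6.12 CPM in Top1 cKO-Topot. WT-Veh replicate 2 lay above every Top1 cKO-Veh library and within the range of both topotecan groups, and the other two WT-Veh libraries were the lowest of the 12. The log2 difference from WT-Veh was 0.93 ± 0.554 in WT-Topot. In the CRE groups it was 0.53 ± 0.629 (Veh) and 1.17 ± 0.597 (Topot), with adjusted p-values in this order of 0.58, 1.0 and 0.422 by edgeR's quasi-likelihood test. With the block, Olig2 rose by 1.32 in Top1 cKO-Topot (adjusted p = 0.00865), a call that the 12-library block fit did not keep (1.21, adjusted p = 0.0146). With the block on all groups and without replicate 2, Olig2 rose in WT-Topot (adjusted p = 3.89e-04) and in Top1 cKO-Topot (adjusted p = 0.00469). Without WT-Veh replicate 2 and without a block, Olig2 rose by 2.41 in WT-Topot (adjusted p = 0.00698), and the CRE groups were at 2.02 (Veh) and 2.65 (Topot) with no call. Without WT-Veh replicate 1 or 3 the difference of WT-Topot was 0.51 and 0.53, that of Top1 cKO-Veh 0.12 in both cases and that of Top1 cKO-Topot 0.75 and 0.76. The difference of Top1 cKO-Veh was 0.83 and 0.06 without its own replicate 1 or 2. That of Top1 cKO-Topot was 0.40 without its own replicate 2. The ratio of Olig1 to Olig2 within a library was 3.89 and 3.61 in WT-Veh replicates 1 and 2 and higher in replicate 3, which had 2 counts of Olig2. It was 4.43 to 7.81 in WT-Topot, 6.63 to 9.73 in Top1 cKO-Veh and 7.21 to 9.09 in Top1 cKO-Topot. The 5 other genes within 250 kb of the pair, Synj1, 4932438H23Rik, Ifnar2, Il10rb and Ifnar1, passed the test in none of the 3 comparisons with WT-Veh, with log2 differences from −1.20 to 0.81.

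Sox10, the third lineage factor, was barely detected. It had 2, 0 and 0 counts in WT-Veh, 3, 0 and 1 counts in WT-Topot, 4, 2 and 1 counts in Top1 cKO-Veh and 6, 2 and 3 counts in Top1 cKO-Topot. The lowest values were in WT-Veh and the highest in Top1 cKO-Topot, with replicate 1 the highest of each group. Most libraries were at or under the floor of 3 counts. Over a group, 11 counts in Top1 cKO-Topot against 2 in WT-Veh gave a rate ratio of 5.24, with an exact 95% interval of 1.14 to 48.6. The ratio was 2.92 (0.556 to 28.8) for Top1 cKO-Veh and 1.69 (0.242 to 18.7) for WT-Topot against WT-Veh. These intervals cover counting error only and not the spread between cultures, and edgeR's quasi-likelihood test gave adjusted p-values of 0.387, 0.942 and 1.0 for the 3 groups.

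Mbp (chr18:82644538-82755029, + strand), which encodes the basic protein that compacts the myelin sheath, was lowest in WT-Topot. It was at 78.4, 79.3 and 68.0 CPM in WT-Veh, at 47.3, 57.5 and 45.0 CPM in WT-Topot, at 97.8, 87.7 and 45.6 CPM in Top1 cKO-Veh and at 108, 82.7 and 67.8 CPM in Top1 cKO-Topot. Every WT-Topot library lay below every WT-Veh library and below every Top1 cKO-Topot library, while Top1 cKO-Veh replicate 3 lay within the WT-Topot range. Members with a mean of at least 1 CPM that did not overlap between WT-Topot and WT-Veh were Mbp on the lower side and Olig1 on the higher, where 13.2% and 12.9% of all genes at that level did so. Between Top1 cKO-Topot and WT-Topot, 13.4% of all genes were higher without overlap, and Mbp was the only such member.

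The log2 fold change of Mbp from WT-Veh to WT-Topot was −0.59 ± 0.198 (adjusted p = 0.123, edgeR's quasi-likelihood test), lower in 3 of 3 replicate numbers, as were 24.1% of all genes averaging at least 1 CPM, by −0.72, −0.46 and −0.59. With the block Mbp fell by 0.59 (adjusted p = 0.00564), and on all 12 libraries it fell by 0.58 (adjusted p = 0.00965). That call was lost without any 1 of the replicate numbers, with values of −0.53, −0.65 and −0.59 and adjusted p-values of 0.107, 0.0106 and 0.0313. Top1 cKO-Veh did not differ detectably from WT-Veh, at 0.04 ± 0.25 with a 95% interval of −0.49 to 0.57, and Top1 cKO-Topot was at 0.22 ± 0.213. Between the topotecan groups Mbp was 0.78 ± 0.208 higher in Top1 cKO-Topot (adjusted p = 0.0254), in 3 of 3 numbers, as were 25.3% of all genes at that level, and with the block it rose by 0.77 (adjusted p = 1.55e-04). That block call was lost without replicate 1 (0.56, adjusted p = 0.0738), and without a block Mbp rose when Top1 cKO-Topot replicate 3 was left out (0.93, adjusted p = 0.00114). Against Top1 cKO-Veh, WT-Topot was at −0.64 ± 0.248 (adjusted p = 0.244), and with the block it fell by 0.61 (adjusted p = 0.00775). There the replicate 3 pair differed by −0.02 only, and the block call was lost without replicate 1 (−0.38) or 2 (−0.60). Without a block and without Top1 cKO-Veh replicate 3, Mbp fell by 0.90 (adjusted p = 0.00236).

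The difference between the effect of topotecan with and without the deletion was 0.75 ± 0.338 for Mbp (95% interval 0.04 to 1.45, adjusted p = 0.551, edgeR's quasi-likelihood test) and −0.59 ± 0.621 for Olig1 (adjusted p = 1.0), so that a difference between the genotypes was not shown. With the block on all groups and without replicate 2, both passed the threshold, at 0.97 for Mbp (adjusted p = 0.00662) and −1.89 for Olig1 (adjusted p = 6.62e-07).

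Cnp, an enzyme of non-compact myelin, was highest on average in WT-Topot, the group with the lowest Mbp. It was at 48.9, 25.9 and 28.2 CPM in WT-Veh, at 68.7, 35.8 and 51.0 CPM in WT-Topot, at 41.1, 15.8 and 12.5 CPM in Top1 cKO-Veh and at 55.8, 32.9 and 38.9 CPM in Top1 cKO-Topot. Replicate 1 was the highest of each group, and all pairs of groups overlapped. Within a replicate number, both topotecan groups were above both vehicle groups in 3 of 3 numbers. Against WT-Veh, 27.0% (WT-Topot) and 25.5% (Top1 cKO-Topot) of all genes averaging at least 1 CPM were higher in 3 of 3 numbers. The log2 difference from WT-Veh was 0.58 ± 0.275 in WT-Topot. In the CRE groups it was −0.58 ± 0.385 (Veh) and 0.31 ± 0.278 (Topot), with adjusted p-values in this order of 0.374, 0.841 and 0.828 by edgeR's quasi-likelihood test. None of these passed the threshold with the block either, or with 1 library left out and no block, where they ran from 0.32 (without WT-Topot replicate 1) to 0.93 (without WT-Veh replicate 1), from −1.28 (without Top1 cKO-Veh replicate 1) to −0.23 (without WT-Veh replicate 1) and from 0.06 (without Top1 cKO-Topot replicate 1) to 0.67 (without WT-Veh replicate 1).

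Against Top1 cKO-Veh, Cnp was 0.89 ± 0.36 higher in Top1 cKO-Topot (adjusted p = 0.986) and 1.16 ± 0.353 higher in WT-Topot (adjusted p = 0.093, edgeR's quasi-likelihood test). With the block Cnp rose in both, by 0.96 (adjusted p = 3.81e-05) and 1.20 (adjusted p = 1.32e-05), and on 12 libraries by 0.93 (adjusted p = 0.00291) and 1.20 (adjusted p = 6.04e-06). The paired differences were 0.43, 1.01 and 1.56 in the first comparison and 0.73, 1.13 and 1.94 in the second, where 18.7% and 26.3% of all genes averaging at least 1 CPM were higher in 3 of 3 numbers. The first block call was lost without replicate 2 (0.88, adjusted p = 0.0111) or 3 (0.73, adjusted p = 0.0883). The second was kept without each number, at 0.92 to 1.53. Top1 cKO-Veh replicate 1 set the size of both: without it and without a block, Cnp rose by 1.57 (adjusted p = 0.00338) and 1.84 (adjusted p = 6.53e-06). Dnajc7, which shares exon bases with Cnp on the opposite strand, was at 67.0 ± 9.64 CPM in WT-Veh, 77.6 ± 17.5 CPM in WT-Topot, 49.8 ± 11.97 CPM in Top1 cKO-Veh and 44.8 ± 11.5 CPM in Top1 cKO-Topot. Whether the counting used strand is not given in the sources used here, and the part of shared reads in the Cnp values was not tested.

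Mog, a late marker on the outer face of the sheath, was near the floor. It had 9, 3 and 5 counts in WT-Veh, 4, 14 and 6 counts in WT-Topot, 0, 2 and 1 counts in Top1 cKO-Veh and 1, 1 and 4 counts in Top1 cKO-Topot. In CPM, every Top1 cKO-Veh library was below every WT-Veh and every WT-Topot library, as were 10.3% of all genes averaging at least 1 CPM against WT-Veh and, for the higher level of WT-Topot, 12.2%. The group rate ratio of Top1 cKO-Veh to WT-Veh was 0.147 (3 against 17 counts, exact 95% interval 0.0276 to 0.509, counting error only), and that of WT-Topot to Top1 cKO-Veh was 8.10 (2.46 to 42.0). The fitted log2 differences of −2.62 ± 0.903 (adjusted p = 0.286) and 2.85 ± 0.858 (adjusted p = 0.0896) did not pass edgeR's quasi-likelihood test. Top1 cKO-Topot had 6 counts, a ratio of 0.282 (0.0943 to 0.709) to WT-Topot. Mag, the axon-facing glycoprotein of myelin, had 0 of 33090892 counts, which allows a level of up to 0.091 CPM over the 12 libraries.

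The progenitor genes were set against the myelin genes by the ratio of summed CPM within each library, as a description with no test. The sum of Pdgfra and Cspg4 was 0.0524 to 0.18 of the sum of Mbp, Cnp, Mag and Mog. The medians of that ratio were 0.064 (WT-Veh), 0.0652 (WT-Topot), 0.113 for the deletion alone and 0.0544 for the deletion with topotecan, with ranges that overlapped. The sum of Olig1, Olig2 and Sox10 was 0.104, 0.589 and 0.169 of the myelin sum in WT-Veh, 0.551, 0.818 and 0.617 in WT-Topot. It was 0.344, 0.912 and 1.38 in Top1 cKO-Veh, with 0.576, 1.69 and 0.476 in Top1 cKO-Topot. WT-Veh replicates 1 and 3 had the lowest values of the 12 libraries, and WT-Veh replicate 2 overlapped with the other groups.

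Mbp and Cnp did not keep a fixed ratio. Mbp was 1.61, 3.07 and 2.41 times Cnp in WT-Veh, 0.688, 1.61 and 0.882 times in WT-Topot, 2.38, 5.55 and 3.64 times in Top1 cKO-Veh and 1.94, 2.51 and 1.74 times in Top1 cKO-Topot. Within each replicate number, the ratio was lowest in WT-Topot and highest in Top1 cKO-Veh. The transcripts behind the Mbp count were not separated, so a ratio of the classical myelin transcript to Cnp is not given.

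**Figure D4:**
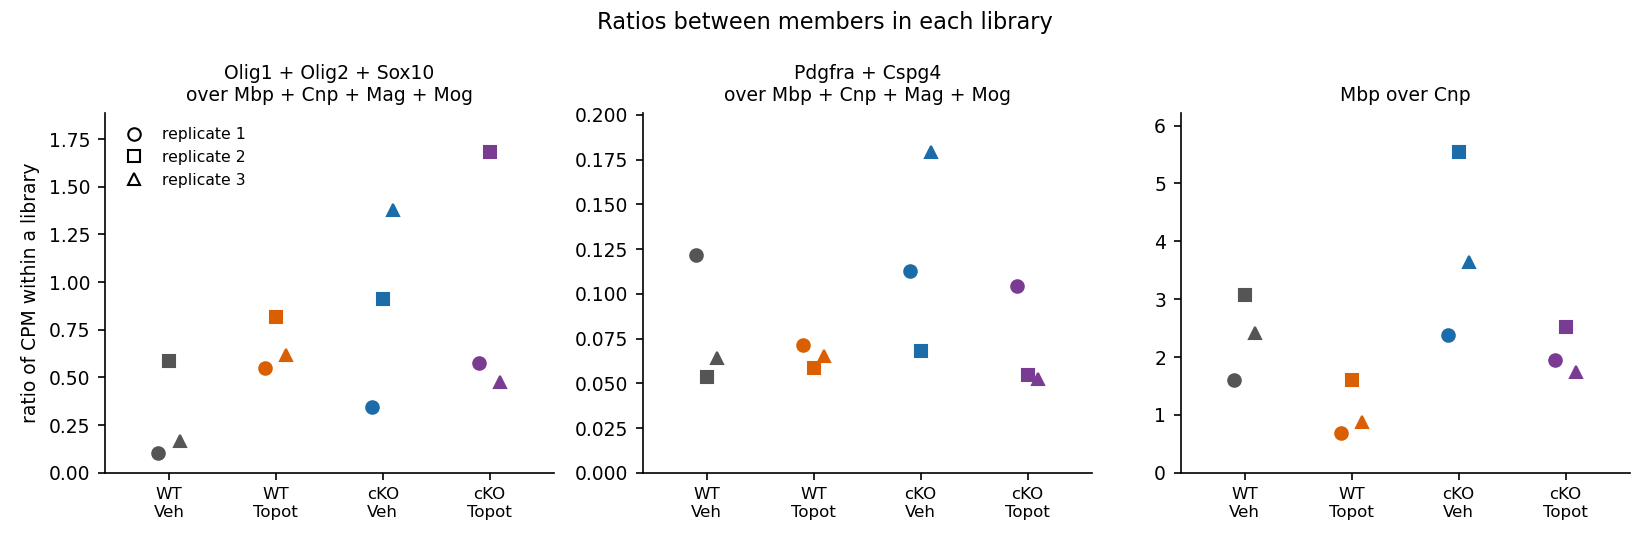
Ratios of summed CPM within each of the 12 libraries by group: Olig1, Olig2 and Sox10 to the myelin members, Pdgfra and Cspg4 to the myelin members, and Mbp to Cnp (linear axes, symbols for replicate numbers). The first ratio is 0.104 to 0.589 in WT-Veh and 0.344 to 1.69 elsewhere, and the last is lowest in WT-Topot, at 0.688 to 1.61.

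Without a block, few genes of the wider lineage lists passed the test, and of the myelin list only Tspan2 did, in 1 comparison. Between WT-Topot and WT-Veh, where 2.04% of all genes fell and 0.682% rose, 1 of 14 lineage transcription factors and 3 of 13 progenitor genes fell, none rose, and 0 of 13 premyelinating and 0 of 26 myelin genes were called. The factor was Sox5, which restrains oligodendrocyte differentiation, at 24.3 ± 9.09 against 56.2 ± 3.34 CPM (log2 fold change −1.20 ± 0.254, adjusted p = 0.00611, edgeR's quasi-likelihood test). The progenitor genes were Lhfpl3 (−2.64 ± 0.332), the protocadherin Pcdh15 (−3.95 ± 0.541) and Susd5 (−1.92 ± 0.405). Of 12 lineage ligands none was called, and of 13 receptors Erbb4, a neuregulin receptor, fell by 4.17 ± 0.613. Sox5, Lhfpl3, Pcdh15 and Erbb4 span 954, 367, 1550 and 1076 kb, and Susd5 spans 41.4 kb. Genes not called include Sox6 (567 kb), Zfp536 (451 kb), Itpr2 (394 kb) and St18 (374 kb). Within the myelin list, Mbp has the longest span, 110 kb. The part of gene span in these calls was not tested. In WT-Topot, Erbb4 at 0.652 ± 0.216 CPM and Pcdh15 at 0.7315 ± 0.608 CPM were near the floor of 3 counts or under it, against 13.1 ± 8.65 and 12.8 ± 3.84 CPM in WT-Veh, so the sizes of these 2 folds depend on the prior count. With 1 library left out and no block, Erbb4 ran from −4.55 to −3.49 and Pcdh15 from −4.91 to −3.61. The call for Sox5 was lost without WT-Topot replicate 1 (−0.97) or 3 (−1.16). That for Susd5 was lost without WT-Topot replicate 1 (−1.92), 2 (−1.95) or 3 (−1.92) or WT-Veh replicate 1 (−1.68).

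In that comparison the median log2 fold change of genes averaging at least 1 CPM was −0.17 over 10 transcription factors, −0.56 over 11 progenitor genes, −0.22 over 5 premyelinating genes and 0.08 over 15 myelin genes, against 0.24 over 7 members and 0.03 over all 13720 genes. Between Top1 cKO-Veh and WT-Veh, where 0.126% of all genes fell, Susd5 alone was called, at 1.44 ± 0.48 against 11.6 ± 3.34 CPM (−2.97 ± 0.472, adjusted p = 0.00839). It lost that call without WT-Veh replicate 1 (−2.72) or 2 (−3.02) or Top1 cKO-Veh replicate 2 (−2.91). The medians there were 0.29, 0.12, 0.24 and −0.67 for the 4 lists, with 13 of 15 myelin genes below 0, against 6904 of all 13720, and none of them called, and 0.12 over the members. Between Top1 cKO-Topot and WT-Veh, where 1.21% of all genes fell, Susd5 (−2.85 ± 0.54), the small GTPase gene Rras2 (−1.31 ± 0.267) and Erbb4 (−3.31 ± 0.637) were called, and the myelin median was −0.61. Susd5 and Erbb4 were near the floor there too, at 1.64 ± 1.13 and 1.16 ± 1.29 CPM. Susd5 and Rras2 lost the call without Top1 cKO-Topot replicate 2 (−2.34 and −1.35), and Erbb4 without WT-Veh replicate 2 (−2.63). With 1 library left out and no block, Erbb4 ran from −4.80 to −2.63 in this comparison.

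Between the topotecan groups, where 1.46% of all genes rose and 1.03% fell, Lhfpl3 rose by 1.38 ± 0.278 in Top1 cKO-Topot and Tspan2, a tetraspanin of the myelin list, fell by 0.99 ± 0.226 (adjusted p = 0.00866, edgeR's quasi-likelihood test), from 50.9 ± 2.35 to 25.8 ± 5.35 CPM. Both calls were lost without Top1 cKO-Topot replicate 2, at 1.41 and −0.93, and Tspan2 also without WT-Topot replicate 2 or 3 (−0.99 and −0.95) or Top1 cKO-Topot replicate 3 (−0.88). The myelin list without the members summed to 69.3 to 122 CPM in WT-Veh and between 83.9 and 109 CPM in WT-Topot, with lower sums of 52.6 to 73.9 CPM in Top1 cKO-Veh and 58.1 to 76.1 CPM in Top1 cKO-Topot. Tspan2 was its highest gene in every group. Between WT-Topot and Top1 cKO-Veh, where 1.23% of all genes fell, Lhfpl3 fell by 1.90 ± 0.257, and no gene of these lists was called between Top1 cKO-Topot and Top1 cKO-Veh or in the interaction.

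The replicate block on 6 libraries called more genes of these lists, members included. Between WT-Topot and WT-Veh, 3 transcription factors fell and 2 rose, and 4 progenitor genes, 1 premyelinating gene, 1 myelin gene, 1 ligand and 1 receptor fell. Between Top1 cKO-Veh and WT-Veh, 2 factors rose, and 3 progenitor genes, 1 premyelinating gene and 2 receptors fell. Between Top1 cKO-Topot and WT-Veh, 3 factors rose, and 1 factor, 3 progenitor genes, 1 premyelinating gene, 1 myelin gene and 1 receptor fell. Between Top1 cKO-Topot and Top1 cKO-Veh, 1 factor and 2 myelin genes rose, and 1 progenitor gene and 1 receptor fell. In Top1 cKO-Topot against WT-Topot, 2 factors, 1 progenitor gene, 1 myelin gene and 2 ligands rose, and 1 premyelinating and 1 myelin gene fell. In WT-Topot against Top1 cKO-Veh, 2 myelin genes rose, and 3 factors, 2 progenitor genes, 1 premyelinating gene, 1 myelin gene, 1 ligand and 1 receptor fell. For the interaction, 2 progenitor genes had a positive term that passed. On all 12 libraries with the block, the counts differed in 4 comparisons. There, 2 progenitor genes and 1 receptor fell in Top1 cKO-Veh against WT-Veh, and 2 factors rose in Top1 cKO-Topot against WT-Veh, without Olig2. Against Top1 cKO-Veh, 1 myelin gene, Cnp, rose in Top1 cKO-Topot and no factor or receptor was called, Olig1 included, and 1 factor, not Olig1, rose in Top1 cKO-Topot against WT-Topot. With the block on 6 libraries the median log2 fold change of WT-Topot against WT-Veh was −0.44 over the progenitor genes, −0.39 over the premyelinating and 0.04 over the myelin genes, and that of the premyelinating genes for Top1 cKO-Topot against WT-Veh was −0.08, against 0.05 without the block. These counts are read against the larger shares of all genes that the block calls, given above.

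Likeness to a member was measured by Pearson correlation of log2(CPM + 1) over the 12 libraries with 9507 genes of at least 10 CPM on average, as a description, since libraries share groups, replicate numbers and depth. Olig1 was most like Larp4 (r = 0.953), Pan3 (r = 0.947) and the cyclin gene Ccnd1 (r = 0.941), and its correlation with Mbp was 0.037 and with Cnp −0.209. Mbp was most like Ankrd50 (r = 0.923), Spire1 (r = 0.922) and Pfkfb3 (r = 0.918). Cnp was most like Rassf4 (r = 0.906), Plekhb1 (r = 0.906) and Vasp (r = 0.902), and Mbp and Cnp had r = 0.04.

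The share of the variance of log2(CPM + 1) that lay between groups was 58.8% for Olig1, 49.98% for Cnp, 49.1% for Mbp, 31.6% for Olig2, 70.0% for Mog, 11.9% for Cspg4 and 3.02% for Pdgfra. Replicate numbers took 25.1% for Olig1, 41.0% for Cnp, 30.8% for Mbp, 49.4% for Olig2, 10.6% for Mog and 61.6% for Cspg4. Groups took the larger share for Olig1, Mbp, Cnp and Mog, and replicate numbers for Pdgfra, Cspg4 and Olig2.

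Markers of other cells were compared beside the members. Astrocyte markers, all 11 detected, summed to 2486 to 5171 CPM in WT-Veh and between 1171 and 1998 CPM in WT-Topot, with 2790 to 6539 CPM in Top1 cKO-Veh and 1736 to 3254 CPM in Top1 cKO-Topot, and their highest gene was Slc1a2, the glial glutamate transporter. They were lowest in WT-Topot, as Mbp was, and replicate 1 was the highest of each group, as for Pdgfra and Cnp. Between WT-Topot and WT-Veh 4 of the 11 fell: Slc4a4 (−2.39), Gfap (−2.54), Slc1a2 (−1.39) and Slc1a3 (−1.52). With the replicate block 6 of 11 fell there, against 5.0% of all genes. In Top1 cKO-Topot 7 of 11 fell with the block against Top1 cKO-Veh and 5 of 11 against WT-Veh (6 and 5 on 12 libraries), beside 1.74% and 4.02% of all genes, where 0 fell without the block. The same 4 genes fell by 1.67 to 2.57 in WT-Topot against Top1 cKO-Veh, Slc1a3 not without WT-Topot replicate 3 (−1.47). With 1 library left out and no block, Gfap there ran from −3.09 to −1.79, and against WT-Veh from −3.07 to −1.90. Not every setting tried kept the calls of Gfap and Slc4a4 against Top1 cKO-Veh or that of Slc1a3 against WT-Veh. Slc1a2 rose by 1.17 in Top1 cKO-Topot against WT-Topot.

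The sum of neuron markers hid single genes that moved in WT-Topot. Rbfox3, which encodes the neuronal protein NeuN, was at 80.2 ± 1.61 CPM there against 157 ± 14.1 CPM in WT-Veh (−0.96 ± 0.18, adjusted p = 0.00209, edgeR's quasi-likelihood test). It was 0.99 higher in Top1 cKO-Topot and 1.01 lower than in Top1 cKO-Veh, and both passed. Snap25, a protein of synaptic vesicle fusion, rose by 1.06 in Top1 cKO-Topot against WT-Topot, where Slc17a7, the vesicular glutamate transporter, fell by 0.80, and Snap25 fell by 0.97 in WT-Topot against Top1 cKO-Veh. Interneuron markers summed to 579 to 1065 CPM in WT-Topot and 806 to 1775 CPM in the other groups. Of these Gad2, which makes GABA, rose by 0.82 in Top1 cKO-Topot against WT-Topot and fell by 1.11 in WT-Topot against Top1 cKO-Veh. Rgs5, a pericyte gene of the mural list, rose by 1.73 in Top1 cKO-Topot against WT-Topot. The first Gad2 call was lost without WT-Topot replicate 1 (0.69) or Top1 cKO-Topot replicate 2 (0.61). Against Top1 cKO-Veh, Rbfox3 lost its call without Top1 cKO-Veh replicate 2 (−0.94) and Snap25 without WT-Topot replicate 1 (−0.82).

 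Microglia markers, 8 of 11 with over 3 counts in a library, summed to 6.91 to 24.6 CPM in WT-Veh and 8.99 to 20.3 CPM in WT-Topot, with 3.51 to 8.47 CPM in Top1 cKO-Veh and 3.497 to 10.63 CPM in Top1 cKO-Topot, lower on average in both CRE groups, as Mog and the myelin list were. Schwann cell markers, which share myelin genes with the lineage, were at 2.86 to 11.7 CPM with 4 of 7 at no more than 3 counts in every library, and endothelial markers at 0 to 7.52 CPM with Emcn at 0. By mean over all 12 libraries, the highest genes of these lists were Syp for neurons (1723 to 2321 CPM), Slc1a2 for astrocytes (468 to 2463 CPM), Gad2 for interneurons (173 to 621 CPM), Col3a1 for fibroblasts (2.29 to 93.04 CPM), Rgs5 for mural cells (5.15 to 31.5 CPM), C1qa for microglia (0 to 8.59 CPM), Prx for Schwann cells (0.857 to 5.18 CPM) and Esam for endothelial cells (0 to 2.19 CPM). Proliferation genes were at 35.2 to 58.6 CPM. The part of any of these cells in the member values was not tested.

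**Figure D5:**
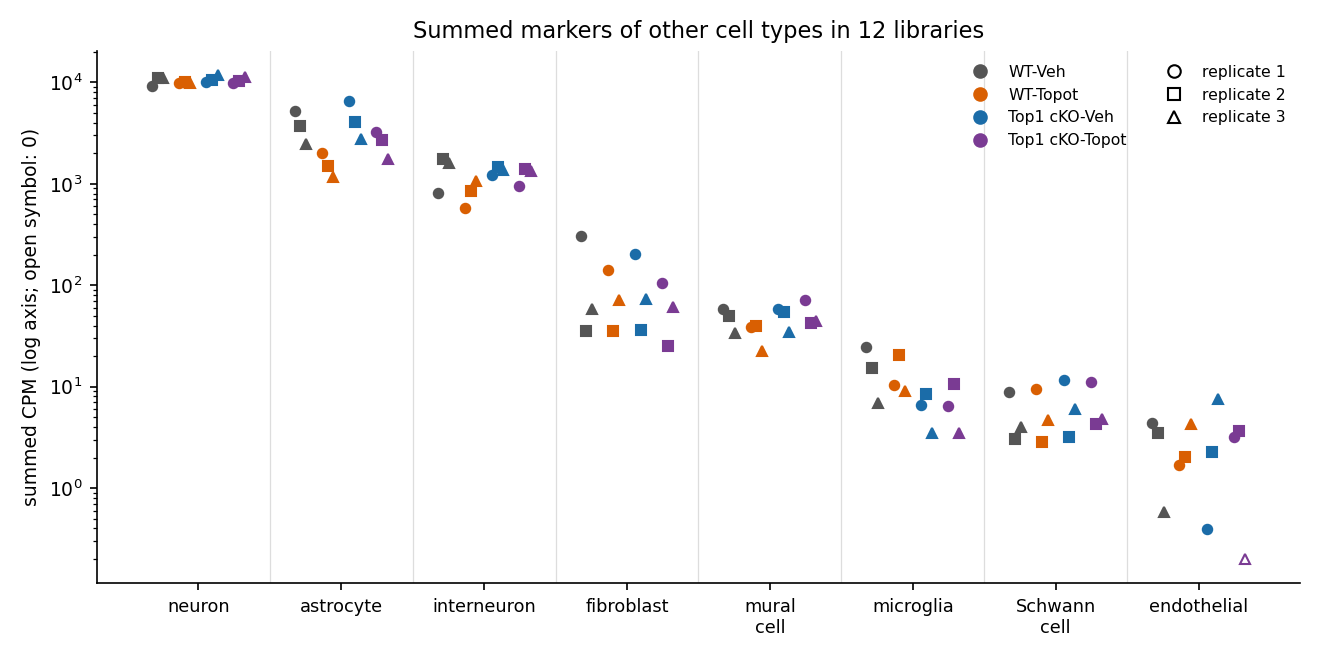
Summed CPM of marker lists of neurons, astrocytes, interneurons, fibroblasts, mural cells, microglia, Schwann cells and endothelial cells in the 12 libraries by group (log axis, symbols for replicate numbers). Neuron markers lie between 9141 and 11830 CPM in every group, astrocyte markers are lowest in WT-Topot, and fibroblast markers are highest in replicate 1 of each group.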

How the data were processed

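Polyadenylated RNA of 12 cultures, 3 per group, was sequenced. Reads were filtered with TagDust and aligned to mm9 with TopHat by the authors, ribosomal RNA was removed, and the authors deposited raw counts of reads over RefSeq exons per gene symbol. The counting program, its use of strand and the RefSeq release are not given in the sources used here. Groups and replicate numbers come from the labels, which do not say what a number stands for, so p-values measure the spread between these libraries.

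Counts were used as deposited. Library sizes were scaled by TMM, and pairs of groups were compared with edgeR 4.0.16 (glmQLFit and glmQLFTest, R 4.3.3) without a filter, with Benjamini-Hochberg adjustment over all 23893 genes and a threshold of 0.01. The interaction was fitted on all 12 libraries. CPM are counts per 1000000 of the TMM-scaled totals, on the log scale with a pseudocount of 1, and edgeR fold changes use a prior count of 0.125. Group sums of weak genes were compared by an exact conditional interval at 95%, and 3 counts served as the floor. Python 3.11.15, pandas 2.3.3 and SciPy 1.17.1 were used. The edgeR fits with and without the replicate block and DESeq2's test were run on simulated counts for WT-Topot against WT-Veh. The other comparisons, the interaction and the other settings were not simulated. Same-numbered libraries deviated together from their group means (r = 0.261 to 0.485 over 18 pairs and 13720 genes). The 36 pairs of different numbers were at −0.384 to −0.0494. Subtracting group means forces negative values there on average where same-numbered pairs are positive, so this range is not separate evidence of pairing. The main tests did not use the replicate numbers, and only the fits with the replicate block took them as pairing the libraries.

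The members and the lists were chosen with earlier results of these data known. All members are named. Of the wider lists, genes under the threshold are named, at most 4 per list, with the highest gene of each list of other cells, and, for members of at least 10 CPM, the 3 genes most like them. Alternatives were DESeq2 (1.42.0) size factors and test, 2 filters on low counts, the replicate block, a fit of all 12 libraries and leaving out each library. The block on all 12 libraries, and that block without each number, were added after seeing the data. Promoter windows are from RefSeq.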

Additional observations from a re-analysis of the deposited data

How the results depend on the processing

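The count of 0 members called held in all 7 comparisons, the interaction included, with DESeq2 size factors, with both filters on low counts and with DESeq2's test. With the fit of all 12 libraries it held in the comparisons of groups, and the interaction was fitted on all 12 libraries throughout. With the replicate block it became 2 for WT-Topot, 1 for Top1 cKO-Veh and 2 for Top1 cKO-Topot against WT-Veh, 2 and 2 for Top1 cKO-Topot against its vehicle and against WT-Topot, 2 for WT-Topot against Top1 cKO-Veh and 0 for the interaction. On all 12 libraries with the block it became 2, 1, 1, 1, 1 and 2 in this order. With 1 library left out and no block, the count was 0 to 2, 0, 0 to 1, 0 to 1, 0 to 2, 0 to 1 and, for the interaction, 0. With the block on all groups and replicate 1, 2 or 3 left out, it was 0, 2 and 1 in the first comparison, then 1, 1 and 1, then 1, 2 and 1, then 1, 0 and 1, then 0, 1 and 2, then 1, 1 and 2, and 0, 2 and 0 for the interaction. In the block fits the spread is mostly borrowed from other genes, so a call of theirs rests on few residual degrees of freedom of its own.

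For the members, the direction of log2 differences near 0 turned where libraries were left out. Without a block, the ranges for WT-Topot against WT-Veh were −0.91 to 0.29 for Pdgfra and −0.58 to 0.04 for Cspg4, and for Top1 cKO-Veh against WT-Veh −0.17 to 0.30 for Mbp. Between Top1 cKO-Topot and Top1 cKO-Veh they were −0.02 to 0.97 for Olig1, −0.12 to 1.08 for Olig2 and −0.09 to 0.37 for Mbp. They were −0.54 to 0.54 for Olig2 between Top1 cKO-Topot and WT-Topot and −0.44 to 0.02 for Olig1 between WT-Topot and Top1 cKO-Veh. For the interaction they were −1.80 to 0.14 for Olig2 and −0.06 to 0.99 for Cnp. With the block on all groups, Pdgfra was at 0.12 (WT-Topot against WT-Veh) and Mbp at −0.15 (Top1 cKO-Veh against WT-Veh) without replicate 1. Without replicate 2, Mbp was at −0.04 in the latter comparison and Olig2 at −0.27 (Top1 cKO-Topot against WT-Topot), and without replicate 3 Olig2 was at 0.06 in the interaction. Of the values of single genes under the other settings, 366 kept their direction and their side of the threshold, 19 gained a call and 38 lost one, and the cause was not tested. Depth limits Sox10 and Mog, with at most 6 and 14 counts in a library.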
